A study of Mus musculus with 2 samples.

Results

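The genes of glycogen synthesis and breakdown were examined in long-read RNA-seq of mouse gastrocnemius, the large calf muscle. The members were 9 annotated genes taken by their symbol (Pygm, Gys1, Gbe1, Gyg, Phka1, Phkb, Phkg1, Phkg2 and Pgm2), of 14451 annotated genes with at least 1 read. All 9 had reads in both libraries, and 7 of them had the 10 reads over both libraries that a comparison needed. The study has 1 group with 2 libraries, labelled biological replicates 1 and 2. Each was made from 2 µg of total RNA of the muscle of adult female B6CASTF1/J mice aged 18 to 20 months, the offspring of a cross of inbred strains, with no treatment or engineered allele in the labels. Both libraries carry the same donor record, and the labels do not say how many animals gave each. The p-values below thus reflect how far these libraries differ from each other, in part perhaps for technical reasons, and say nothing about other animals. In each library 1 read stands for 1 cDNA molecule, and the deposited tables count the reads of each transcript model.

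Glycogen is the glucose store of muscle. Glycogenin (Gyg) starts a new particle by adding glucose to itself, glycogen synthase (Gys1 in muscle) lengthens the chains, and the branching enzyme (Gbe1) adds the branches. Glycogen phosphorylase (Pygm in muscle, the gene lost in McArdle disease) releases glucose 1-phosphate, which phosphoglucomutase turns into glucose 6-phosphate. Phosphorylase is switched on by phosphorylase kinase, a complex that holds a catalytic γ subunit (Phkg1 in muscle, Phkg2 in liver and testis) with the regulatory α (Phka1 in muscle, Phka2 in liver) and β (Phkb) subunits, and calcium activates it during contraction. The α and β genes are known in rabbit and human for alternative exons that differ between tissues.

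The sequences that carry the structural results are those of the exons and junctions at which the reads of a gene differed from each other or from the annotation. All were taken from GENCODE M21 transcripts on mm10, 5′ to 3′ on the strand of the gene, and all lie within the annotated coding part. In the exon entries the exon is in capitals between bases of the neighbouring exons in lower case. Exon 19 of Phka1 (transcript Phka1-202, chrX:102557096-102557272, minus strand, 177 nt) is the cassette that split the reads of this gene. Exon 28 (chrX:102532077-102532115, 39 nt) and its alternative (exon 28 of Phka1-206, chrX:102531922-102531960, 39 nt) differ at 5 of 39 positions. Exon 26 of Phkb (Phkb-201, chr8:86026457-86026547, plus strand, 91 nt) is the exon that most reads left out. Exon 5 of Phkg1 (Phkg1-201, chr5:129869461-129869526, minus strand, 66 nt) is skipped in a minor form.
Phka1 exon 19: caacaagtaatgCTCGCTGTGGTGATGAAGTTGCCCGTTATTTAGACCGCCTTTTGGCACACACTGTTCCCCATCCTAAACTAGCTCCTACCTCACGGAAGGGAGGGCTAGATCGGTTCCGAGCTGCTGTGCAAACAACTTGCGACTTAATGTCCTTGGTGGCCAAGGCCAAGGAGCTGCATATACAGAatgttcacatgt
Phka1 exon 28: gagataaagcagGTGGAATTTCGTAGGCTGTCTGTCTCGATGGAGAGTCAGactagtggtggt
Phka1 exon 28 alternative: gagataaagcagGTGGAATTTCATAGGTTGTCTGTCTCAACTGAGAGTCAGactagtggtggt
Phkb exon 26: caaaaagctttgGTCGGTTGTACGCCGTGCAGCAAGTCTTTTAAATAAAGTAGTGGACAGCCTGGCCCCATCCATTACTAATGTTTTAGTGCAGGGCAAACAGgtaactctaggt
Phkg1 exon 5: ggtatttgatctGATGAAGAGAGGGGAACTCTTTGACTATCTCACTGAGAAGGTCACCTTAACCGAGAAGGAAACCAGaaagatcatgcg

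The other entries show where a protein or an exon begins. The annotated starts of Phkb lie in exon 1 (Phkb-206, coding part chr8:85841028-85841103) and in exon 2 (Phkb-201, coding part chr8:85843061-85843112), with the start codon in capitals. The Gyg entry begins at the start codon in exon 1 and has in capitals the 5 bases that open exon 2 (chr3:20152861-20152865, minus strand) and that a minor form lacks. The Gbe1 entry is the junction of exons 3 and 4, with in capitals the 4 bases (chr16:70401850-70401853 in Gbe1-203, plus strand) that can be placed at the end of exon 3 or at the start of exon 4.
Phkb start in exon 1: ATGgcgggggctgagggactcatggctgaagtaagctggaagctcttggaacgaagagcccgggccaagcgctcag
Phkb start in exon 2: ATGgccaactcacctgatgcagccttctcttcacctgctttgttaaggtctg
Gyg exon 2 start: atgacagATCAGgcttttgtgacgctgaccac
Gbe1 junction of exons 3 and 4: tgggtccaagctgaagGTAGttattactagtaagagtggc

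The muscle phosphorylase gene Pygm was the most abundant member, also per length. Replicate 1 held 3677 of its reads and replicate 2 held 2999, which is 3289.2 and 3073.7 CPM (counts per 1000000 reads of annotated genes; mean 3181.5 ± 152.4, SD, n = 2), and it ranked 24 of 14451 genes by CPM. The libraries lay close together for this gene. All 9 members together reached 5081.9 CPM in replicate 1 and 5492.5 CPM in replicate 2.

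Among the phosphorylase kinase subunits, the α subunit gene Phka1 had 596 reads (533.1 CPM) in replicate 1 and 992 reads (1016.7 CPM) in replicate 2. The β subunit gene Phkb had 357 reads (319.4 CPM) in replicate 1 and 435 (445.8 CPM) in replicate 2. The γ subunit gene Phkg1 had 185 reads (165.5 CPM) in replicate 1 and 202 (207.0 CPM) in replicate 2. All 3 were higher in replicate 2, and Phka1 was the one whose libraries lay farthest apart. Phkg2, the γ subunit of liver and testis, had 2 reads in each library, below the 3 reads that a count of 0 allows (2.68 CPM in replicate 1 and 3.07 CPM in replicate 2).

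On the side of synthesis, the synthase gene Gys1 had 321 reads (287.1 CPM) in replicate 1 and 377 (386.4 CPM) in replicate 2. The primer gene Gyg had 425 reads (380.2 CPM) in replicate 1 and 271 (277.8 CPM) in replicate 2, and the branching enzyme gene Gbe1 had 117 reads (104.7 CPM) in replicate 1 and 78 (79.9 CPM) in replicate 2. By CPM, replicate 1 was above replicate 2 for Gyg and Gbe1 and below it for Gys1.

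The member labelled Pgm2 had 1 read in replicate 1 and 3 in replicate 2, no more than a count of 0 allows. In GENCODE M21 this symbol belongs to a gene at chr5:64092950-64128351. The phosphoglucomutase gene that was abundant is named Pgm1 there (chr4:99929414-99987294), and the RefSeq gene table lists Pgm2 among its older names. Pgm1 had 1761 reads (1575.3 CPM) in replicate 1 and 1210 (1240.1 CPM) in replicate 2. Of the reads of both genes, Pgm2 took 0.0568% (95% Wilson interval 0.0100 to 0.321) in replicate 1 and 0.247% (0.0841 to 0.725) in replicate 2. At this step of the pathway the reads were thus almost all those of Pgm1.

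Divided by the length of each gene's leading transcript, the level of Pygm was 1144.5 CPM per kb in replicate 1 and 1069.5 in replicate 2, apart from every other member. Next on this per-length scale came Gyg at 171.2 ± 37.7 CPM per kb and Phka1 at 126.7 ± 55.9 (SD, n = 2), whose libraries overlapped. Gys1 (91.6 ± 19.1 CPM per kb), Phkb (84.1 ± 19.7) and Phkg1 (78.5 ± 12.4) lay close together, in this order in both libraries. Their differences were not tested. Gbe1 was lower than these in both libraries, at 35.1 CPM per kb in replicate 1 and 26.8 in replicate 2. Phkg2 and Pgm2 stood last, at 1.22 ± 0.117 and 0.838 ± 0.651 CPM per kb.

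**Figure D1:**
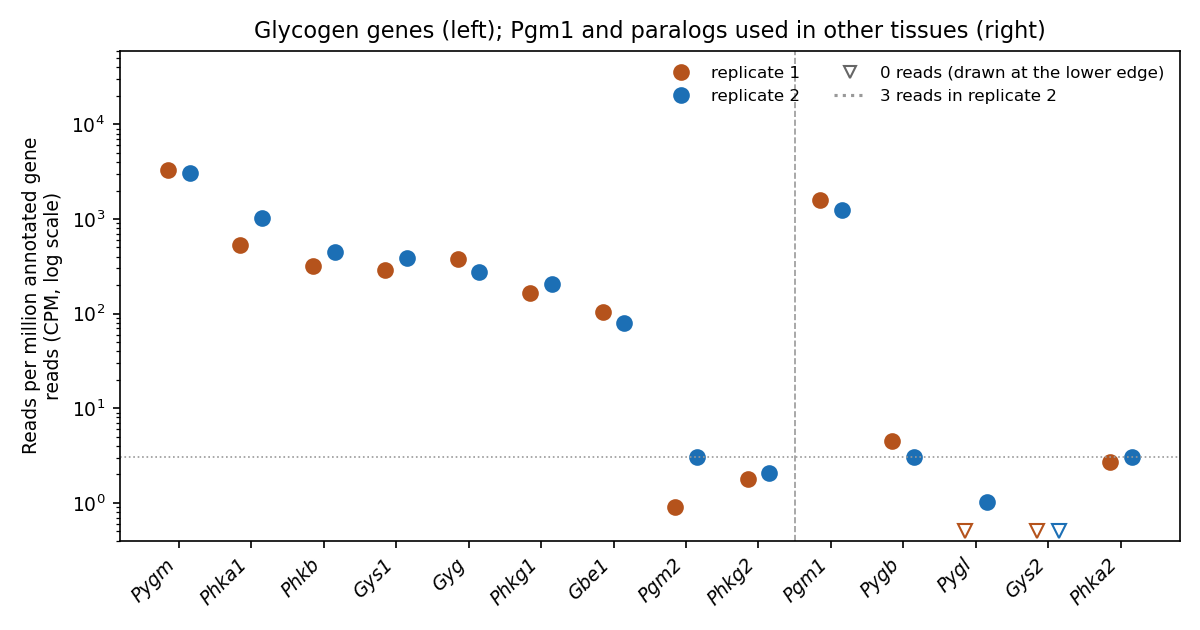
Level (CPM, log scale) of the 9 members, left of the dashed line, and of Pgm1 and 4 paralogs, right of it, with replicate 1 left of replicate 2. Points are single libraries, triangles stand for 0 reads, and the dotted line marks 3 reads in replicate 2 (3.07 CPM); 7 members lie far above that line, while Pgm2 and Phkg2 lie at or under it.

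The muscle forms stood almost alone among their paralogs. Pygm took 99.9% of the reads of the 3 phosphorylase genes in each library (Wilson interval 99.7 to 99.9 in both), with 5 reads in replicate 1 and 3 in replicate 2 for the brain form Pygb and 0 and 1 for the liver form Pygl. No read came from the liver synthase gene Gys2, against 321 and 377 from Gys1, which allows Gys2 up to 2.68 CPM in replicate 1 and 3.07 CPM in replicate 2. Phka1 took 99.5% in replicate 1 and 99.7% in replicate 2 of the reads of both α genes, with 3 Phka2 reads in each. Phkg1 took 98.9% and 99.0% of the reads of both γ genes. Pygm and Pygb share 79 of 2854 words of 21 bases (2.77%) and Phkg1 shares 94 words (3.99%) with Clic4; no member shared a larger part with another gene. Gys1 overlaps Ruvbl2 and Phkg1 overlaps Sumf2 on the opposite strand, and Chchd2 lies within the Phkg1 locus; their reads were kept apart as the deposited models assign them. Intervals and the limits of a count of 0 cover counting error only.

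The labelled tissue matched its markers: the 9 muscle fibre genes summed to 309566.0 CPM in replicate 1 and 355424.2 CPM in replicate 2, and all 4 liver genes had 0 reads. The libraries held 1175829 and 1017384 reads, of which 1117891 and 975696 fell on annotated genes, and 30211 in replicate 1 and 7609 in replicate 2 fell on entries the tables name as spike-ins, which were left out of the reported levels and tests. The libraries differed in fibre genes and in a trend with transcript length. The 12 slow fibre genes (Myh7, Tnnt1 and others) summed to 880.2 CPM in replicate 1 and 5746.7 CPM in replicate 2, each higher in replicate 2. Of them, 6 also passed the test that allows for scatter between libraries (0.286% of all tested genes did), a scatter estimated from these same libraries. Myh7 is also on the muscle fibre list. On that list Myh1 and Myh2, myosins of fast fibres, were 5.78-fold and 7.06-fold higher in replicate 2 and passed with scatter (edgeR exact test, adjusted p = 0.00266 and 0.000508), and Myh4, the myosin of the fastest fibres, was 1.74-fold higher there, with an adjusted p of 1.00 in that test. In bulk RNA, more fibres of a type and more RNA per fibre cannot be told apart. Genes with long transcripts were on the whole lower in replicate 1: the log2 ratio (replicate 1 over replicate 2) had a median of 0.37 under 1000 nt and of -0.38 from 6000 nt (Spearman's rho across genes -0.38, n = 8308, a description, since genes are not independent replicates). Markers of other cells were low: fibroblast genes summed to 337.2 CPM in replicate 1 and 468.4 in replicate 2, endothelial genes to 74.2 and 50.2, macrophage genes to 54.6 and 19.5 (Cd68 at 0), adipocyte genes to 16.1 and 18.4, and neuron and glia genes to 43.8 and 12.3 (Snap25 at 0). By the exact binomial test described next, Col1a1, Col1a2 and Col3a1 passed as 3.56-fold, 5.24-fold and 3.91-fold higher in replicate 2, and Dcn (1.71-fold), Lyz2 (4.95-fold) and Mbp (3.37-fold) as higher in replicate 1; with scatter allowed for, none of these 6 passed.

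Between the libraries, 4 kinase and synthase genes were higher in replicate 2 and Gyg was higher in replicate 1, by a 2-sided exact binomial test against library sizes scaled by TMM, adjusted by the Benjamini-Hochberg method over 8394 genes. Phka1 was 2.07-fold higher in replicate 2 (exact 95% interval 1.86 to 2.29, adjusted p = 9.86e-44). Phkb was 1.51-fold higher in replicate 2 (1.31 to 1.74, adjusted p = 3.2e-07), and Gys1 was 1.46-fold higher there (1.25 to 1.70, adjusted p = 2.07e-05). Phkg1 passed narrowly at 1.35-fold higher in replicate 2 (1.10 to 1.66, adjusted p = 0.0295). Gyg was 1.26-fold higher in replicate 1 (1.08 to 1.48, adjusted p = 0.0262). Pygm (1.01-fold higher in replicate 2, 0.964 to 1.06, adjusted p = 0.878) and Gbe1 (1.21-fold higher in replicate 1, 0.900 to 1.63, adjusted p = 0.497) did not pass. The 3 kinase subunit genes that were tested passed in the same direction. Scaling by total reads put Pygm higher in replicate 1 (log2 ratio 0.10, adjusted p = 0.0490 by the exact binomial test) and ended the call of Phkg1 (adjusted p = 0.147), and the call of Gyg did not hold in counts of Known, NIC and NNC models (adjusted p = 0.0919).

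In all, 5 of the 7 tested members passed, against 11.7% of all tested genes: 1 higher in replicate 1, where the background is 4.61%, and 4 higher in replicate 2, where it is 7.06%. The binomial test sees no source of error besides counting. In an edgeR exact test that used the dispersion common to the libraries, 0 of the 7 passed (0.286% of all tested genes did), and Phka1 alone had an unadjusted p below 0.05 (p = 0.0461, adjusted p = 1.00). Neither the differences in fibre and other cell markers nor the trend with length was separated from these values, and their part in the result was not tested. Genes within 20% of a member's length had a median log2 ratio of -0.39 for Phka1 (itself at -1.05, n = 949 genes), -0.31 for Phkb (-0.60) and -0.19 for Gys1 (-0.54). The same median was 0.07 for Phkg1 (-0.44), 0.20 for Gyg (0.34), -0.06 for Gbe1 (0.27) and -0.04 for Pygm (-0.02). The 4 genes higher in replicate 2 thus lay below the median of genes of their length, and Gyg and Gbe1 lay above it. Their direction was read from this same ratio, so this is no test of the part of length.

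**Figure D2:**
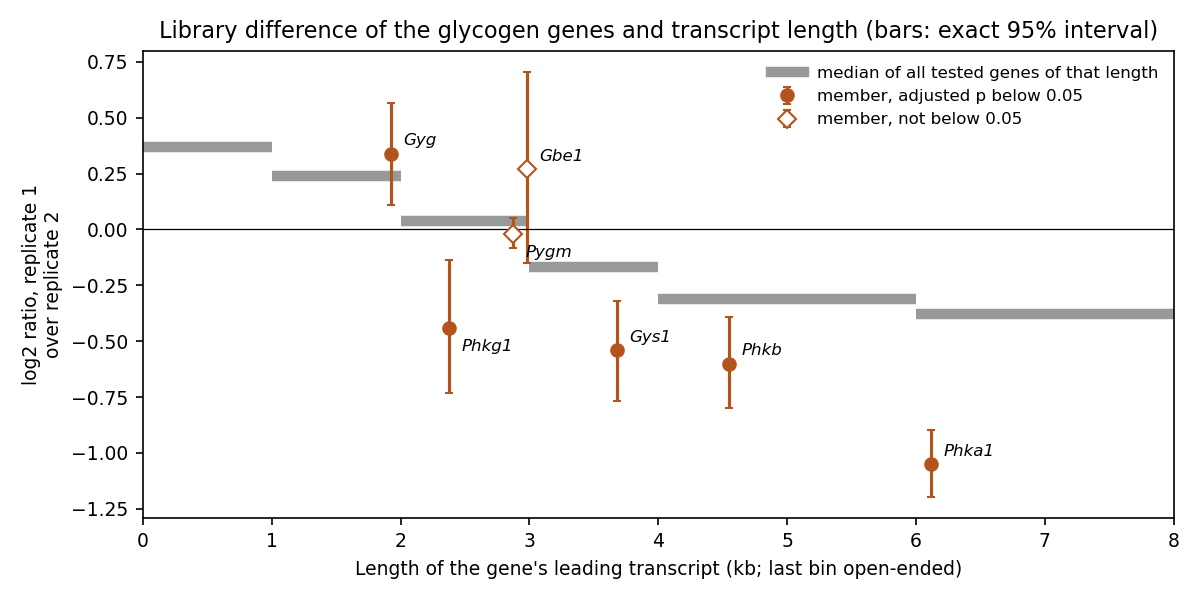
The log2 ratio of replicate 1 over replicate 2 against the length of the leading transcript, for the 7 tested members (points with exact 95% intervals; filled where the adjusted p was below 0.05) and for all tested genes by length bin (grey bars, medians). Phka1, Phkb, Gys1 and Phkg1 lie below the grey bar of their length, at -1.05, -0.60, -0.54 and -0.44.

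The structures of 5 of the 7 well-read members followed an annotated transcript. Reads were grouped by intron chain, the ordered set of their splice junctions, using chains classed as Known, as a new combination of annotated splice sites (NIC) or as holding a splice site that is not annotated (NNC). Pygm-201, with 20 exons, held 96.1% of 2232 such reads in replicate 1 and 96.4% of 1884 in replicate 2. Gys1-201 (16 exons) held 92.6% and 94.5%, Gyg-201 (7 exons, the same chain as Gyg-203) 89.4% and 89.6%, Phkg1-201 (10 exons) 81.0% and 84.8%, and Phka1-202 (33 exons) 64.2% and 56.0%. The median over 3526 genes was 89.8%, and Phka1 had the lowest share among the tested members. The leading chains of Gbe1 and Phkb were absent from GENCODE M21, which was so for 7.91% of those genes.

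The α subunit gene Phka1 was read in forms with and without exon 19, the cassette printed above. The exon was included in 364 of 510 spanning reads in replicate 1 (71.4%, Wilson interval 67.3 to 75.1) and in 581 of 937 in replicate 2 (62.0%, 58.9 to 65.1). The first form is Phka1-202, with 1241 codons, and the form without the exon is Phka1-201, with 1182 codons. Phka1-201 held 25.9% of the gene's reads grouped by chain in replicate 1 and 33.5% in replicate 2. In rabbit, the α subunit of fast muscle holds the corresponding segment and the α′ subunit of slow muscle and heart lacks it. Inclusion was 9.37 percentage points higher in replicate 1 than in replicate 2, a difference that did not pass over all 35863 exons tested (Fisher's exact test, p = 0.000338, adjusted p = 0.527). The library with the lower inclusion was the one with the higher slow fibre sum, and the part of fibre type was not tested.

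The downstream exons of Phka1 were in nearly all reads. Exon 28 was included in 520 of 532 reads (97.7%) in replicate 1 and in 933 of 955 (97.7%) in replicate 2. Its alternative, which differs from it at 5 of 39 bases, was in 0 of 533 and 0 of 955 reads, which allows up to 0.563% in replicate 1 and 0.314% in replicate 2. Exon 29 (chrX:102528067-102528117, 51 nt) was included in 98.3% of reads in replicate 1 and 97.2% in replicate 2. Single reads spanned all 3 places: 353 of 508 in replicate 1 and 558 of 931 in replicate 2 held exons 19, 28 and 29, and 140 and 331 lacked exon 19 alone. Exon 29 was missing from 12 of 938 reads with exon 19 (1.28%) and from 23 of 501 without it (4.59%), summed over both libraries. These reads were few in replicate 1. There, among reads that held exon 28 and lacked exon 29, 1 had exon 19 and 3 lacked it, against 6 and 14 in replicate 2. A link between exons 19 and 29 was not tested.

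The β subunit gene Phkb used an exon that GENCODE M21 does not hold. This exon lies at chr8:86025198-86025288 on the plus strand and has 91 nt, the length of annotated exon 26, and it ends 1168 bases before that exon starts. It was included in 325 of 332 spanning reads in replicate 1 (97.9%, Wilson interval 95.7 to 99.0) and in 399 of 410 in replicate 2 (97.3%, 95.3 to 98.5). Annotated exon 26, printed above, was included in 6 of these reads (1.81%) in replicate 1 and in 10 (2.44%) in replicate 2. No read held both exons, and 1 read in each library held neither. Human PHKB is known for a pair of mutually exclusive exons in this part of the gene.

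Exon 2 of Phkb, which holds the start codon of Phkb-201, was also nearly absent. Its form of 109 nt was in 2 of 317 reads (0.631%) in replicate 1 and 6 of 382 (1.57%) in replicate 2. A shorter annotated form of 92 nt, which covers the same start codon, was in 3 of 317 (0.946%) and 2 of 382 (0.524%). The leading chain instead joined exon 1 to the next common exon and so kept the start codon in exon 1. It had 31 exons, and 2 of its 30 junctions were not annotated. Of the reads grouped by chain, it held 283 of 319 (88.7%) in replicate 1 and 329 of 383 (85.9%) in replicate 2. From the start in exon 1 to the annotated stop it measures 3279 nt, which is 1093 codons with no remainder, against 1085 codons in Phkb-201; the bases of the unannotated exon were not analysed here. Only 2 reads in replicate 1 and 1 in replicate 2 fell in Phkb models classed as Known, so that a count from Known models alone puts the gene at 2.27 CPM instead of 382.6 CPM.

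**Figure D3:**
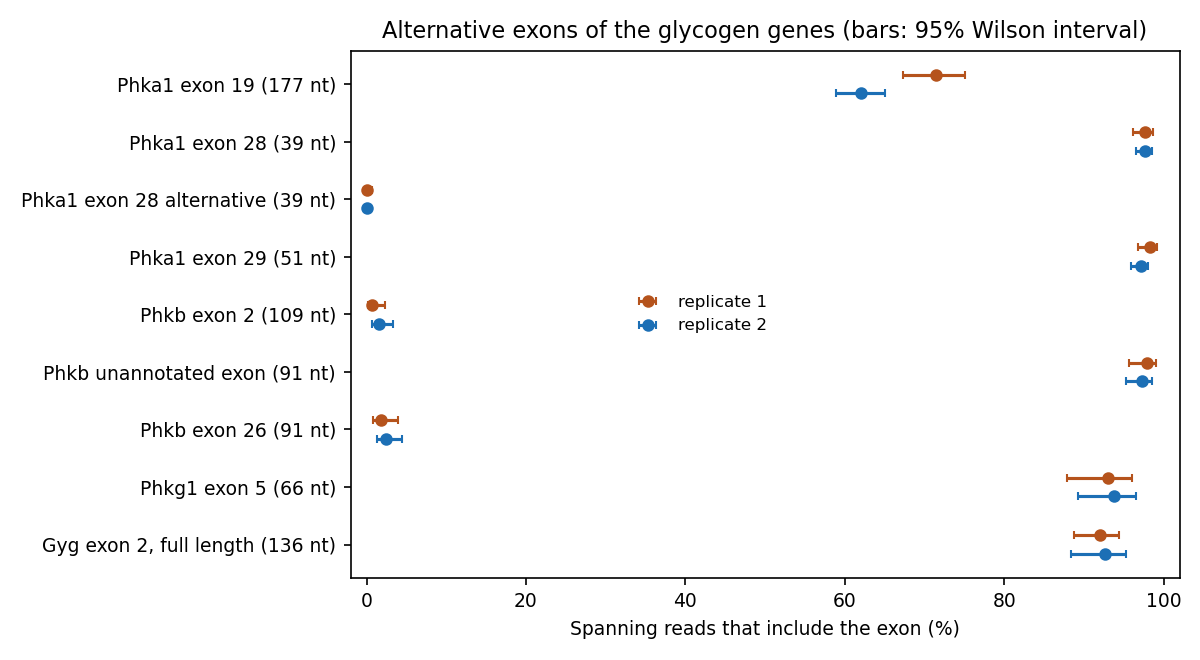
Share of spanning reads that include each alternative exon (percent, with 95% Wilson intervals), replicate 1 above replicate 2. Phka1 exon 19 is at 71.4% in replicate 1 and 62.0% in replicate 2, the unannotated Phkb exon is above 97% and Phkb exon 26 below 3% in both libraries, and no read held the alternative of Phka1 exon 28.

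The catalytic subunit gene Phkg1 had a minor form without exon 5, whose 66 nt are a multiple of 3. The exon was included in 146 of 157 reads (93.0%, Wilson interval 87.9 to 96.0) in replicate 1 and in 167 of 178 (93.8%, 89.3 to 96.5) in replicate 2. The chain without it held 11 reads in each library, 7.19% in replicate 1 and 6.67% in replicate 2, and is not annotated. In Gyg, an unannotated chain started exon 2 at 5 bases downstream, leaving out the bases in capitals above, and held 26 reads (7.43%) in replicate 1 and 15 (6.52%) in replicate 2. The full exon of 136 nt was in 322 of 350 reads (92.0%) in replicate 1 and 212 of 229 (92.6%) in replicate 2. For both minor forms the intervals of the libraries overlapped.

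The leading Gbe1 chain, with 105 of 111 reads (94.6%) in replicate 1 and 71 of 72 (98.6%) in replicate 2, differed from Gbe1-203 only at the junction of exons 3 and 4. Its splice sites there, ending exon 3 at chr16:70401849 and starting exon 4 at chr16:70433545, are those of Gbe1-207 and lie 4 bases before those of Gbe1-203. The 40 bases around the junction are identical in both transcripts, as the entry printed above shows, so that the mRNA spelled at this place is the same. The class given to the reads does differ: 109 of 117 Gbe1 reads in replicate 1 and 72 of 78 in replicate 2 were NIC, and a count from Known models alone gives 0.703 CPM instead of 92.3 CPM.

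Neither chains nor exons of members passed the comparison of libraries. For the share of the leading chain, 0 of 7 members passed (Fisher's exact test, adjusted over 3526 genes, of which 0.369% passed), and Phka1 alone had an unadjusted p below 0.05 (p = 0.00356, adjusted p = 0.365). Of 133 annotated internal exons of members tested, 0 passed (0.0362% of all exons did). With every internal exon held in both libraries tested, annotated or not, 0 of the members' exons passed and 0.0447% of all. Of the 133, Phka1 exon 19, Pygm exon 14 and Gys1 exon 9 had an unadjusted p below 0.05; the Pygm and Gys1 exons were named after their values were seen. Inclusion, which required both ends of an exon to match, was at least 95% for 115 of the 133 exons and under 5% for 15. The remaining 3 were Phka1 exon 19, Phkg1 exon 5 and Gyg exon 2. An exon under 5% was not always skipped, since some differ from a common exon only at an end. Gbe1 exon 3 of 120 nt was in 0 of 113 reads in replicate 1 and 0 of 72 in replicate 2. Its annotated form of 116 nt was in 112 of 113 and 72 of 72. Others, such as Phkb exon 26, were left out of most reads.

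**Figure D4:**
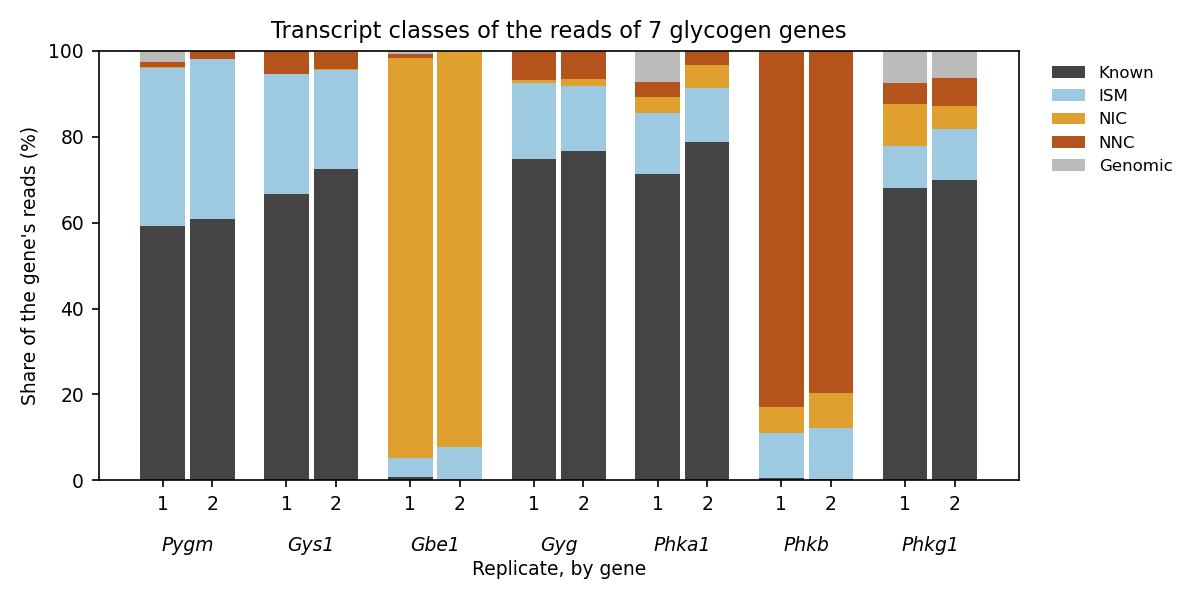
Share of the reads of 7 members in each transcript class (stacked bars, percent), with replicate 1 left of replicate 2. Known models hold most reads of 5 members, NIC 93.2% and 92.3% of Gbe1 reads, and NNC 82.6% and 79.8% of Phkb reads; the incomplete class ISM is widest in Pygm, at 36.8% in replicate 1 and 37.2% in replicate 2.

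Pygm reads were the least complete. A read was counted as complete when it held an annotated first and last junction of a coding transcript, which was so for 58.7% of Pygm reads in replicate 1 and 60.9% in replicate 2. By this rule the other tested members lay between 75.8% (Gyg) and 93.2% (Gbe1) in replicate 1. In replicate 2 they lay between 78.2% (Gyg) and 93.6% (Phkb). The first junction could be that of any coding transcript, so a complete read need not reach exon 1 of the reference transcript. The median of 3918 genes was 87.5% in replicate 1 and 89.0% in replicate 2. Nearly all Pygm reads held the last junction, 97.3% in replicate 1 and 98.6% in replicate 2, and the incomplete reads mostly lacked the first. Of Pygm reads with the last junction, 82.0% in replicate 1 and 86.3% in replicate 2 reached exon 5, and 60.7% and 62.3% reached exon 1. Phka1, whose transcript is longer, reached exon 1 in 86.2% of such reads in replicate 1 and 90.1% in replicate 2. For Gys1, 276 reads were complete in replicate 1 and 336 in replicate 2, but only 222 and 285 reads reached exon 1. These were 76.3% and 79.6% of the Gys1 reads with the last junction. Phkb and Phkg1 also had more complete reads than reads reaching exon 1 in both libraries, and Pygm, Gyg, Gbe1 and Phka1 did not. Over all 9 members, 67.0% of reads were complete in replicate 1 and 72.4% in replicate 2 (69.7% ± 3.82, SD, n = 2).

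**Figure D5:**
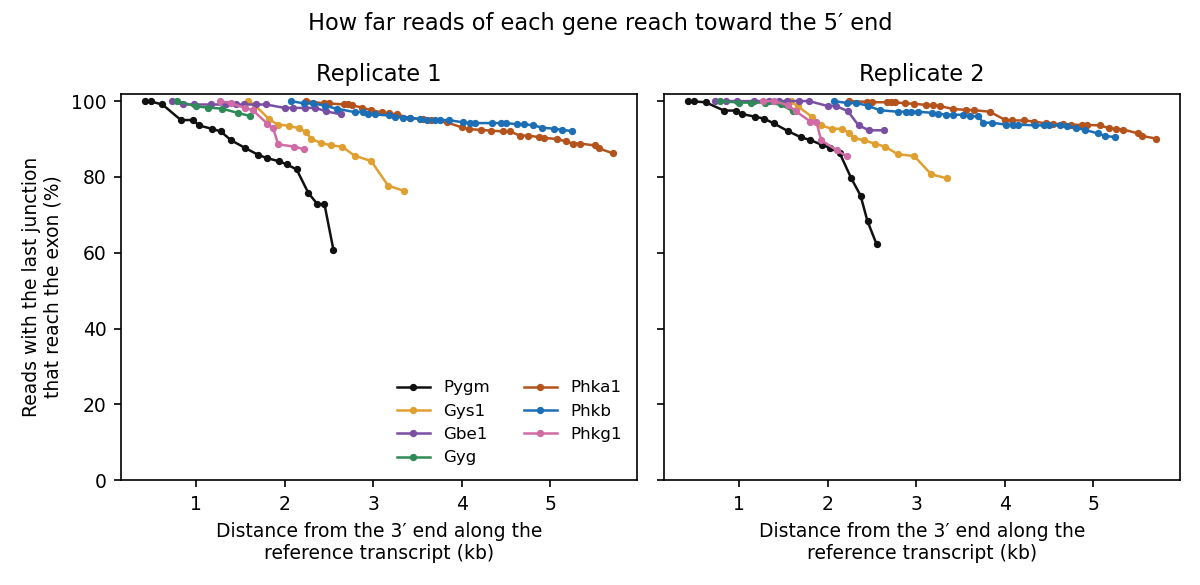
Share of reads holding a gene's last annotated junction that extend to each exon (percent) against the distance of that exon from the 3′ end of the reference transcript (kb), replicate 1 left and replicate 2 right. Pygm falls to 60.7% in replicate 1 and 62.3% in replicate 2 at its first exon, while Phka1 stays at 86.2% and 90.1% over a longer distance.

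The other genes of the pathway formed a list of 25, of which 23 had reads and 20 were tested. Of these, 4 passed as higher in replicate 1 (Calm2, Calm3, Ppp1ca and Stbd1), 4 as higher in replicate 2 (Ppp1r3a, Ppp1r3c, Gaa and Hk2) and 12 did not pass; over all tested genes, 4.61% passed as higher in replicate 1 and 7.06% as higher in replicate 2. These shares were not matched to the list in read number. The list had a median log2 ratio of 0.06 against 0.00 over all tested genes. Calm2 and Calm3, which encode a calcium-binding protein, had 213.8 and 709.4 CPM in replicate 1 and 125.0 and 429.4 CPM in replicate 2. Ppp1r3a and Ppp1r3c, which bring protein phosphatase 1 to glycogen, had 77.8 and 193.2 CPM in replicate 1 and 160.9 and 344.4 CPM in replicate 2, where they were 2.24-fold and 1.93-fold higher (exact binomial test, adjusted p = 4.2e-08 and 1.8e-12). Hk2, a hexokinase, was 1.99-fold higher in replicate 2 (adjusted p = 6.07e-08), Gaa, the lysosomal glucosidase lost in Pompe disease, 1.21-fold higher there (adjusted p = 0.0202), and Stbd1, a glycogen-binding protein, 1.85-fold higher in replicate 1 (adjusted p = 0.000797). Ugp2, which makes the glucose donor of the synthase (751 reads in replicate 1, 596 in replicate 2), did not pass. Ppp1r3e and Ppp1r3g had no read. With scatter between libraries allowed for (edgeR exact test), 0 of the 20 passed (0.286% of all tested genes did), and Ppp1r3a alone had an unadjusted p below 0.05 (p = 0.0375).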

How the data were processed

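RNA of 2 gastrocnemius libraries was read as long reads. Per the labels, the assembly is mm10, and per the file headers the tables deposited by the authors give, for each transcript model, an unnormalized read count, its number of exons and its length; the deposited annotations name the models by TALON, on GENCODE M21 plus models added in each library. No aligner, filter or version is named in what was used here.

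The counts of a gene's models, of every class, were added up. Genes reaching 10 reads in the sum of the libraries were compared by an exact binomial test with TMM factors of 1.04 and 0.961 (edgeR 4.0.16, R 4.3.3). This was done since 1 library per side leaves no residual degrees of freedom for a quasi-likelihood fit. An edgeR exact test was the alternative, with a common dispersion of 0.0622 estimated from the same libraries taken as 1 group. Models were matched between libraries by intron chain. The leading chain of genes with at least 20 chain reads, and annotated internal exons with at least 20 spanning reads, in each library were compared by Fisher's exact test (scipy 1.17.1). All p-values were adjusted by the Benjamini-Hochberg method over all features, at 0.05. The tests were first run on simulated counts, drawn with the error that each test assumes. Such counts cannot show how the calls hold under other error. DESeq2 1.42.0 size factors, total reads, other classes, minimums and definitions were tried as alternatives. All 9 members are named, with chains holding at least 5% of a member's chain reads and exons included at 5% to 95%. The members, lists, rules and tests were chosen with earlier results of these data known. Some genes of the list of other pathway genes are not reported here and were left out of its counts.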

Additional observations from a re-analysis of the deposited data

Results flagged for a closer look

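Reads on the strand opposite to a member, placed by the deposited tables in unannotated antisense loci and used in no comparison, exceeded the 3 reads that a count of 0 allows in each library over 3 members. There were 16 such reads over Pygm (5 in replicate 1 and 11 in replicate 2), 13 over Phka1 (4 and 9) and 12 over Phkb (6 in each). They were set against no control samples, since all libraries used here belong to 1 group.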

How the results depend on the processing

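The members that differed between libraries were 5 of 7 (11.7% of all tested genes). Here too the shares over all genes were not matched to the members in read number. The count was 5 of 7 with total reads (12.4% of all) or DESeq2 size factors (11.7%), and 4 of 9 with no filter (5.86%). It was 3 of 7 from Known, NIC and NNC models (Gys1, Phka1 and Phkb, against 12.3% of all). From Known models it was 2 of 5 (Gys1 and Phka1, against 11.1%), where Phkb and Gbe1 had too few reads to be tested. With scatter between libraries allowed for it was 0 of 7 (0.286%). The narrower classes hold fewer reads, and the cause was otherwise not tested. With total reads the median log2 ratio of all genes shifts to 0.11, and Pygm reverses to 0.10 (adjusted p = 0.0490 by the exact binomial test) while Phkg1 no longer passes (adjusted p = 0.147); Phkg1 also fails with no filter (adjusted p = 0.0506), and Gyg and Phkg1 fail from the narrower classes (adjusted p = 0.0919 and 0.0878 with Known, NIC and NNC). The counts of 0 for chains and exons held under every alternative run, including Known models for chains and, added after the data were seen, every observed internal exon and Known models for exons; the exon 19 adjusted p of Phka1 ranged from 0.111 to 1.00. The summed level of the members, 5287.2 CPM, was 4338.0 CPM from Known, NIC and NNC models, and 5081.9 to 5492.5 CPM over single libraries. Paralog shares moved little: Pygm to 99.8% from either narrower class set, Phka1 to 99.8% from Known models, and Phkg1 to 98.8% from Known, NIC and NNC and 98.9% from Known models. Completeness was 58.5% instead of 69.7% when the whole chain had to be annotated, which excludes all Gbe1 and Phkb reads, and 67.0% to 72.4% over single libraries. Of 145 alternative values for single genes and exons, 117 stayed within the spread or on their side of the threshold. Levels and completeness from a single library are among them. Such values always lie within the SD of 2 libraries, so this count is no measure of robustness. No paired analysis was possible because there is only 1 group. Leaving out a library leaves no comparison. Depth limits Phkg2 and Pgm2, and forms under the limit of a count of 0.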
